A study of Homo sapiens with 4 samples.

Results

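The genes described here are 10 human genes of epidermal growth factor receptor signalling: the ligands AREG, EREG, HBEGF and TGFA, the receptors EGFR, ERBB2 and ERBB3, and the feedback genes DUSP6, SPRY2 and SPRY4. They were found by Entrez Gene identifier, and all 10 were present in each of the 4 gene tables, out of 17962 identifiers in the series. The libraries carry 1 label each: a FLAG-tagged JFK plasmid, an empty vector, an siRNA against ING5, and a control siRNA, all given to cells that the labels call HepG2, a line derived from a human liver tumour. JFK is an earlier name for the F-box protein FBXO42, which picks substrates for a ubiquitin ligase, and ING5 is a subunit of histone acetyltransferase complexes. Dose, duration and siRNA sequence are not given in the labels. Each group held 1 library, so no difference has a replicate check and no test across genes was run. Every interval on a difference comes from the 2 counts behind it by the exact Clopper-Pearson method at 95% and covers counting error only.

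EGFR ligands are made as membrane proteins and are released by sheddases of the ADAM family. Ligand binding joins EGFR to itself or to another ERBB receptor and starts the RAS, RAF, MEK and ERK kinase cascade. Active ERK switches on genes that act back on the cascade, among them the ERK phosphatase DUSP6 and the Sprouty proteins, which damp signalling from the receptor to RAS and RAF. In liver the pathway is known for its part in regeneration, and amphiregulin and HB-EGF are made by injured or regenerating liver tissue.

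Assigned reads came to between 7179479 and 9196979 per library. FBXO42 had 115 counts in the JFK-labelled library and 116 in vector (log2 difference 0.01, interval −0.37 to 0.40), so the label was not matched by more FBXO42 transcript, and the text keeps to the name JFK-labelled library. ING5 had 81 counts in ING5 siRNA and 144 in control siRNA, 57.0% of the control level after scaling. Of 10 hepatocyte markers, HNF4A and CPS1 had at least 20 counts in every library, APOA1, APOB, AFP and SERPINA1 had at most 7 where they had a value, FGB had at most 15.4, and ALB, TTR and TF have no value here. The markers for secreted hepatocyte products were thus low or without a value, and the cell line label was not borne out by them. CPS1, in contrast, stood above at least 99.2% of listed genes in every library. The hepatocyte list, nearly all of it CPS1, summed to between 3084.1 and 5095.3 CPM (counts scaled to the library total) over the 4 libraries. Endothelial markers, mostly the cadherin gene CDH5, summed to 163.8 CPM in the JFK-labelled library and 145.5 in vector. They summed to 12.4 CPM in ING5 siRNA and 26.5 in control siRNA. Breast line markers, nearly all of it the keratin KRT17, summed to 3817 CPM in the JFK-labelled library, 2935 in vector, 259.5 in ING5 siRNA and 296.3 in control siRNA. The fibroblast list summed to between 74.2 and 91.1 CPM over the 4 libraries, and the leukocyte list, mostly CD68, to between 50.4 and 183.8 CPM.

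Levels were first read per length, as FPKM for the plasmid pair and as RPKM for the siRNA pair, units in which the authors divided reads by gene length and library depth. EGFR, the receptor for all 4 ligands, had the highest level of the 10 in every library, at 37.3 FPKM in the JFK-labelled library, 38.2 FPKM in vector, 55.4 RPKM in ING5 siRNA and 68.7 RPKM in control siRNA. It stood above 86.2% of listed genes in the JFK-labelled library and above 93.8% in control siRNA. SPRY4 had the lowest level in each library, between 0.61 RPKM in control siRNA and 1.17 FPKM in vector. EGFR exceeded ERBB2, the co-receptor without a ligand of its own, 2.54 times in the JFK-labelled library and 2.90 times in vector, against 13.4 times in ING5 siRNA and 17.6 times in control siRNA. ERBB3, a neuregulin receptor with little kinase activity of its own, lay between 2.71 RPKM in control siRNA and 3.93 FPKM in vector.

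The ligands changed places between the plasmid and the siRNA libraries. AREG, for amphiregulin, was the leading EGFR ligand per length in the JFK-labelled library (16.2 FPKM) and in vector (14.5 FPKM), while EREG, for epiregulin, led in ING5 siRNA (44.4 RPKM) and in control siRNA (24.5 RPKM). Among 7 ligands that bind EGFR (these 4 with EGF, BTC and EPGN), EREG made up 13.0% of the summed level in the JFK-labelled library and 15.2% in vector, against 78.9% in ING5 siRNA and 70.3% in control siRNA. The share of AREG was 43.5% in the JFK-labelled library and 38.8% in vector, and 5.7% in ING5 siRNA and 9.1% in control siRNA. The plasmid pair and the siRNA pair differ in what was transfected, and their tables were made separately and in different units. This contrast is thus a description, with no test. The kind of transfection, the separate making of the tables and any other difference between the pairs cannot be told apart. The same holds for the EGFR to ERBB2 ratios and the marker sums above. AREG counts are uncertain, since GRCh37, a build named in the submitters' processing notes, carries another near-identical AREG copy, whose identifier had 0 rows in these tables.

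**Figure D1:**
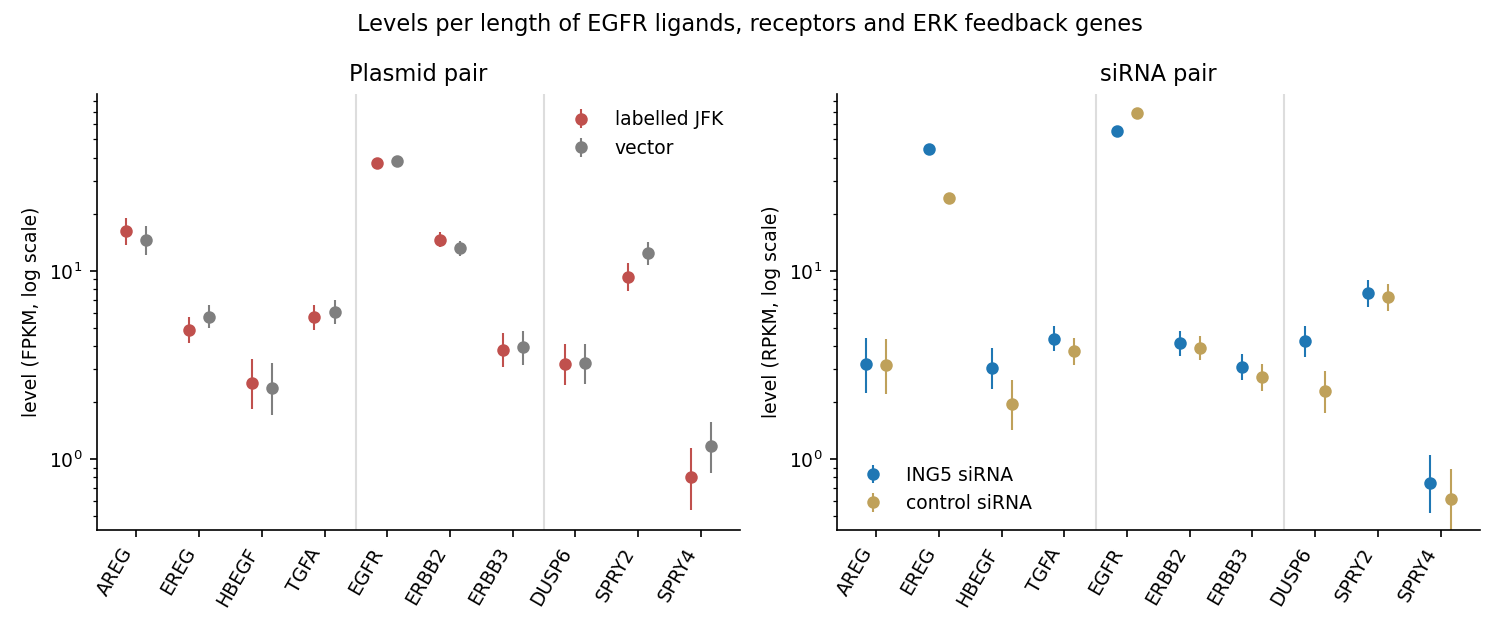
Level of each of the 10 genes in each library, in FPKM for the plasmid pair and RPKM for the siRNA pair, both on a log scale, with points for libraries, bars for exact 95% Poisson intervals of the count (counting error only) and grey lines between ligands, receptors and feedback genes. EGFR is the highest gene in every library, and EREG lies at 44.4 RPKM in ING5 siRNA and 24.5 RPKM in control siRNA but at 4.86 FPKM in the JFK-labelled library and 5.71 FPKM in vector.

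Several neighbours in the order of levels could not be separated by their Poisson intervals. In the JFK-labelled library, AREG (13.7 to 19.0 FPKM) overlapped ERBB2 (13.4 to 16.0 FPKM), and TGFA, EREG, ERBB3, DUSP6 and HBEGF each overlapped the next. In ING5 siRNA, EGFR and EREG stood apart from each other and from the rest, SPRY2 followed at 7.59 RPKM, and TGFA, DUSP6, ERBB2, AREG, ERBB3 and HBEGF lay between 3.04 and 4.37 RPKM with each interval overlapping the next. DUSP6 was the fifth gene in ING5 siRNA and the eighth in control siRNA.

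ING5 siRNA was set against control siRNA to ask which of these transcripts differ with less ING5. EREG and DUSP6 stood 1.82-fold and 1.85-fold higher in ING5 siRNA, HBEGF stood 1.55-fold higher, and EGFR itself stood lower, at 0.808 of control siRNA. TGFA, AREG, ERBB2, ERBB3, SPRY2 and SPRY4 had intervals that spanned 0. Differences are log2 ratios of counts scaled by TMM, which corrects for library size and composition. All 10 genes passed the filter of a mean of at least 20 normalised counts. At 1.5-fold, 3 of the 10 were higher and 0 lower, beside 4.01% of 11634 measured genes higher and 4.40% lower. An interval lay wholly above 0 for 3 of the 10 and wholly below for 1, beside 18.3% and 20.6% of measured genes. None was 2-fold apart, beside 1.46% of measured genes in either direction. The median log2 difference of the 10 was 0.20, beside −0.01 for all measured genes. The 10 genes were chosen with earlier results of these data known, so setting them beside all genes is a description and no test.

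EREG, a broad-acting ligand of EGFR and ERBB4, had 1871 counts in ING5 siRNA and 1042 in control siRNA (log2 difference 0.86, interval 0.75 to 0.97). The interval is narrow because EREG was deeply counted in both libraries. Of 11634 measured genes, 31 (0.266%) had an interval whose lower bound lay farther above 0. HBEGF, for the heparin-binding ligand of EGFR and ERBB4, had 66 counts in ING5 siRNA and 43 in control siRNA (0.63, interval 0.06 to 1.22), a difference whose lower bound nearly reached 0. TGFA, for transforming growth factor alpha, had 172 counts in ING5 siRNA and 149 in control siRNA (0.22, interval −0.10 to 0.55). AREG had 37 counts in each (0.02, interval −0.68 to 0.71), an interval that leaves a 1.64-fold difference undetectable at this depth. Summed over the 7 EGFR ligands, the level was 56.2 RPKM in ING5 siRNA and 34.8 RPKM in control siRNA, and most of that gap was EREG.

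Of the receptors, EGFR had 2835 counts in ING5 siRNA and 3549 in control siRNA (−0.31, interval −0.38 to −0.24), so the receptor stood lower in the library in which EREG stood higher. ERBB2 had 181 counts in ING5 siRNA and 173 in control siRNA (0.08, interval −0.23 to 0.39). ERBB3 had 162 in ING5 siRNA and 144 in control siRNA (0.19, interval −0.15 to 0.52). Neither of these co-receptors could be separated from equal levels. ERBB4, the remaining receptor of the family, was below the filter, with 26 counts in ING5 siRNA and 12 in control siRNA (1.10, interval 0.09 to 2.25).

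DUSP6, the phosphatase that removes the activating phosphates from ERK, had 110 counts in ING5 siRNA and 60 in control siRNA (0.89, interval 0.42 to 1.37). SPRY2, a Sprouty protein that acts between receptor and RAF, had 147 counts in ING5 siRNA and 142 in control siRNA (0.07, interval −0.28 to 0.41). SPRY4, its relative, had 34 counts in ING5 siRNA and 28 in control siRNA (0.29, interval −0.47 to 1.07). DUSP6 was therefore the 1 of these 3 whose interval lay off 0.

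**Figure D2:**
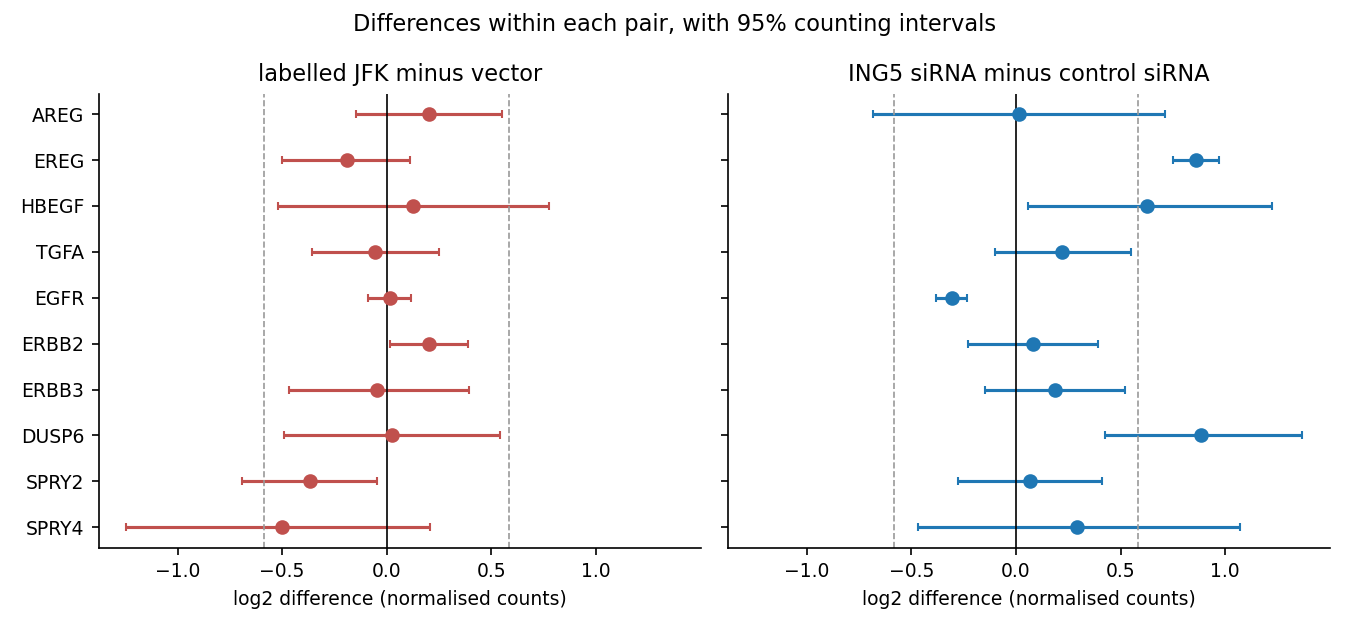
Log2 difference of TMM-scaled counts for each of the 10 genes, in the JFK-labelled library minus vector (left) and in ING5 siRNA minus control siRNA (right), with exact 95% counting intervals; dashed lines mark 1.5-fold. EREG, HBEGF and DUSP6 lie above 0 and EGFR below 0 on the right, while ERBB2 above and SPRY2 below are the only intervals off 0 on the left.

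EREG and AREG are neighbours on chromosome 4, in a row of ligand genes that runs EPGN, EREG, AREG and BTC. EPGN, for epigen, had 29 counts in ING5 siRNA and 33 in control siRNA, and BTC, for betacellulin, had 0 in ING5 siRNA and 2 in control siRNA, so EREG was the 1 gene of this row whose interval lay off 0 in the siRNA pair. The promoter windows of EREG and AREG are shown because these neighbours had unlike values, with the EREG interval in the siRNA pair above that of AREG, and those of DUSP6 and HBEGF because they stood higher together with EREG. Each window runs from 250 bases before to 50 bases after the annotated start in RefSeq on GRCh38.p14, 5′ to 3′ on the gene's strand. They are chr4:74364895-74365194 on the plus strand for EREG, chr4:74444886-74445185 on the plus strand for AREG, chr12:89352452-89352751 on the minus strand for DUSP6 and chr5:140346554-140346853 on the minus strand for HBEGF. Capitals mark motif matches.
EREG: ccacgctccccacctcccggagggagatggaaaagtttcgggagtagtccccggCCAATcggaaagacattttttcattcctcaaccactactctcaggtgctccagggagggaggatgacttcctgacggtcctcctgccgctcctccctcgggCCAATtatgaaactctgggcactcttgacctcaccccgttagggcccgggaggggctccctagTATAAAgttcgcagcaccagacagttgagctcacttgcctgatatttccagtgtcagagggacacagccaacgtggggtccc
AREG: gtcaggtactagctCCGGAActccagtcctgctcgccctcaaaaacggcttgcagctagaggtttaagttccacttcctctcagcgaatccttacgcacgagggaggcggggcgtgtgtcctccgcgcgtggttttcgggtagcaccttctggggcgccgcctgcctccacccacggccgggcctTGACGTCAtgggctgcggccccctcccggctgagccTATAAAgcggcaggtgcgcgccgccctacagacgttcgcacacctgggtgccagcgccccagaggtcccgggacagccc
DUSP6: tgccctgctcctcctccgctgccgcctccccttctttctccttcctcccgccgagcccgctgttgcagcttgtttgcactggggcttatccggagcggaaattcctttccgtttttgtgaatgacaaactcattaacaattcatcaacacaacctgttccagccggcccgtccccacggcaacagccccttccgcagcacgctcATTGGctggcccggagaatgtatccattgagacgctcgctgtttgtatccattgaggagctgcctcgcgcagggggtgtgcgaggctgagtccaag
HBEGF: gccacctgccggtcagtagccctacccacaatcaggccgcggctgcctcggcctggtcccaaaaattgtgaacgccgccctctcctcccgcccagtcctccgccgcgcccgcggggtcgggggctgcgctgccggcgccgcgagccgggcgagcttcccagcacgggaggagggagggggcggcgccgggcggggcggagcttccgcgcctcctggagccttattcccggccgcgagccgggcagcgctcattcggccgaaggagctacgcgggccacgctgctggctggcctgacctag

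The motifs searched, on both strands, were the AP-1 site TGANTCA, the cyclic AMP response element TGACGTCA, the TATA box TATAAA, the ETS core CCGGAA, the CCAAT box CCAAT, and, by name, the CArG box and the NF-kB site. Positions count the annotated start as 1, with the base before it as −1. EREG and AREG both held a TATA box, at −32 and at −29, a match found in 11.5% of 35116 promoter windows. EREG also held CCAAT boxes at −196 and −95 (34.6% of windows hold one), and AREG held a cyclic AMP response element at −65 (1.85% of windows) and an ETS core at −236 (17.2%). DUSP6 held a CCAAT box at −46, and HBEGF held 0 matches to these motifs. No match in these 4 windows overlapped another. EREG and DUSP6 both held a CCAAT box, and with 0 matches in HBEGF no motif could be common to EREG, DUSP6 and HBEGF. A match is a description of the letters and not evidence of a bound factor.

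The rest of the pathway was read from 7 further lists with 70 genes. Among ERK target genes, 15 of 18 were measured in the siRNA pair: 9 had an interval above 0 and 3 below, against the shares of 18.3% and 20.6% given above for all measured genes, and the median was 0.35. IER3, a survival factor gene, had 2801 counts in ING5 siRNA and 1352 in control siRNA (1.07, interval 0.97 to 1.16). PHLDA1, a pleckstrin-domain gene of the early response, had 338 in ING5 siRNA and 163 in control siRNA (1.07, interval 0.79 to 1.35), and LIF, for a cytokine of the interleukin-6 family, had 218 in ING5 siRNA and 126 in control siRNA (0.81, interval 0.48 to 1.14). The immediate early factor genes EGR1 and FOS, at −0.10 and −0.15, had intervals that spanned 0, and the cyclin gene CCND1 lay at −0.29 (interval −0.40 to −0.18); these 3 were chosen after their values were seen. The list was thus mixed in direction, and it too was chosen with earlier results of these data known.

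A list of other feedback genes also held genes that restrain RAS or ERK, such as NF1 and PEA15, whether or not ERK switches them on. It gave 3 intervals above 0 and 0 below among 11 measured, beside 18.3% and 20.6% of all measured genes. DUSP5, a nuclear ERK phosphatase, had 289 counts in ING5 siRNA and 168 in control siRNA (0.80, interval 0.52 to 1.08), and PEA15, which holds ERK in the cytoplasm, had 1062 in ING5 siRNA and 809 in control siRNA (0.41, interval 0.28 to 0.54). NF1, a brake on RAS, lay at 0.20 (interval 0.12 to 0.29). Among 10 genes that restrain the receptor, ERRFI1, an inhibitor that binds the EGFR kinase, had 236 counts in ING5 siRNA and 156 in control siRNA (0.61, interval 0.32 to 0.91). CBL, the ubiquitin ligase that sends EGFR for degradation, had 584 in ING5 siRNA and 790 in control siRNA (−0.42, interval −0.58 to −0.26), and the other 8 spanned 0.

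The release step and the cascade also held genes in both directions. ADAM10, a sheddase best known for EGF and betacellulin, had 856 counts in ING5 siRNA and 1274 in control siRNA (−0.56, interval −0.68 to −0.43), whereas ADAM17, which releases amphiregulin, HB-EGF and TGF-alpha, had 426 in ING5 siRNA and 354 in control siRNA (0.28, interval 0.08 to 0.49). ADAM9 lay at 0.14 (interval 0.06 to 0.22). Of 17 adaptor and kinase genes, 3 had an interval above 0, 3 below and 11 spanned it. Beside them, 18.3% of all measured genes lay above and 20.6% below, so neither was more frequent in this list. NRAS lay at 0.37 (interval 0.28 to 0.46) and MAP2K1, for MEK1, at 0.31 (interval 0.20 to 0.42). Of the further ligands, NRG1, a neuregulin that binds ERBB3 and ERBB4, had 105 counts in ING5 siRNA and 54 in control siRNA (0.97, interval 0.49 to 1.48), while NRG4 had 473 in ING5 siRNA and 568 in control siRNA (−0.25, interval −0.43 to −0.07).

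Markers of other cell types also differed in the siRNA pair. The endothelial cadherin gene CDH5 had 87 counts in ING5 siRNA and 224 in control siRNA (−1.34, interval −1.72 to −0.99). It was the 1 endothelial marker that passed the filter. PECAM1, below the filter, had 21 counts in ING5 siRNA and 16 in control siRNA (0.40, interval −0.60 to 1.44). VWF and TEK had at most 3 counts in either library. The fibroblast proteoglycan gene DCN had 37 counts in ING5 siRNA and 74 in control siRNA (−0.97, interval −1.59 to −0.40). The 4 measured fibroblast markers did not share a direction: LUM was also lower, with 232 counts in ING5 siRNA and 294 in control siRNA (−0.33, interval −0.58 to −0.07). COL3A1 was higher, with 352 in ING5 siRNA and 278 in control siRNA (0.36, interval 0.13 to 0.59), and COL1A1, at −0.09, had an interval that spanned 0. Over the whole lists, 2 of 5 endothelial and 4 of 6 fibroblast markers had at least 20 counts in ING5 siRNA, and 1 of 5 and 4 of 6 in control siRNA; COL1A2 had 0 counts in ING5 siRNA and 2 in control siRNA, and KDR and PDGFRA have no value in that pair. CD68 lay at −0.32 (interval −0.50 to −0.13) and KRT17 at −0.22 (interval −0.30 to −0.14), while GATA3 spanned 0. Markers differed in the plasmid pair too. There the leukocyte marker LYZ lay at −0.64 (interval −1.10 to −0.21), past 1.5-fold. KRT17 lay at 0.42 (interval 0.39 to 0.44) and CDH5 at 0.21 (interval 0.09 to 0.34). CD68, PECAM1, KRT81 and the 4 measured fibroblast markers spanned 0 in that pair. The part of these markers in the differences of the 10 genes was not tested. In bulk RNA, fewer cells of a type and less RNA per cell cannot be told apart.

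For the plasmid, the question was which of these transcripts differ between the JFK-labelled library and vector. Differences were small: 0 of the 10 genes reached 1.5-fold, beside 3.56% of 12106 measured genes in either direction, and 0 reached 2-fold, beside 0.570%. SPRY2 stood lower, at 0.775 of vector, and ERBB2 stood slightly higher, at 1.15-fold. These were the 2 genes with an interval off 0, beside 25.5% of measured genes, so intervals off 0 were no more frequent among the 10 than among all genes. The median log2 difference of the 10 was −0.02, beside 0.00 for all measured genes.

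SPRY2 had 144 counts in the JFK-labelled library and 189 in vector (−0.37, interval −0.69 to −0.05). SPRY4 had 29 in the JFK-labelled library and 42 in vector (−0.50, interval −1.25 to 0.21), so this relative lay on the same side without an interval off 0. DUSP6 had 66 counts in each (0.02, interval −0.49 to 0.54). Its interval overlapped those of both Sprouty genes.

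ERBB2 had 501 counts in the JFK-labelled library and 443 in vector (0.20, interval 0.01 to 0.39), and with total-count scaling its interval reached 0 (−0.02 to 0.35). EGFR had 1537 in the JFK-labelled library and 1549 in vector (0.01, interval −0.09 to 0.12), an interval whose bounds correspond to 0.940 and 1.08 of vector. ERBB3 had 91.74 expected counts in the JFK-labelled library and 96.28 in vector (−0.05, interval −0.47 to 0.39).

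Among the ligands, AREG had 148 counts in the JFK-labelled library and 131 in vector (0.20, interval −0.15 to 0.55). EREG had 165.02 expected counts in the JFK-labelled library and 191.51 in vector (−0.19, interval −0.50 to 0.11). HBEGF had 44 counts in the JFK-labelled library and 41 in vector (0.13, interval −0.52 to 0.78). TGFA had 180 in the JFK-labelled library and 190 in vector (−0.05, interval −0.36 to 0.25). No ligand could be separated from equal levels, and for EREG the whole interval lay below the siRNA interval of 0.75 to 0.97. The pairs have separate controls and separate tables, and the difference between them was not tested.

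**Figure D3:**
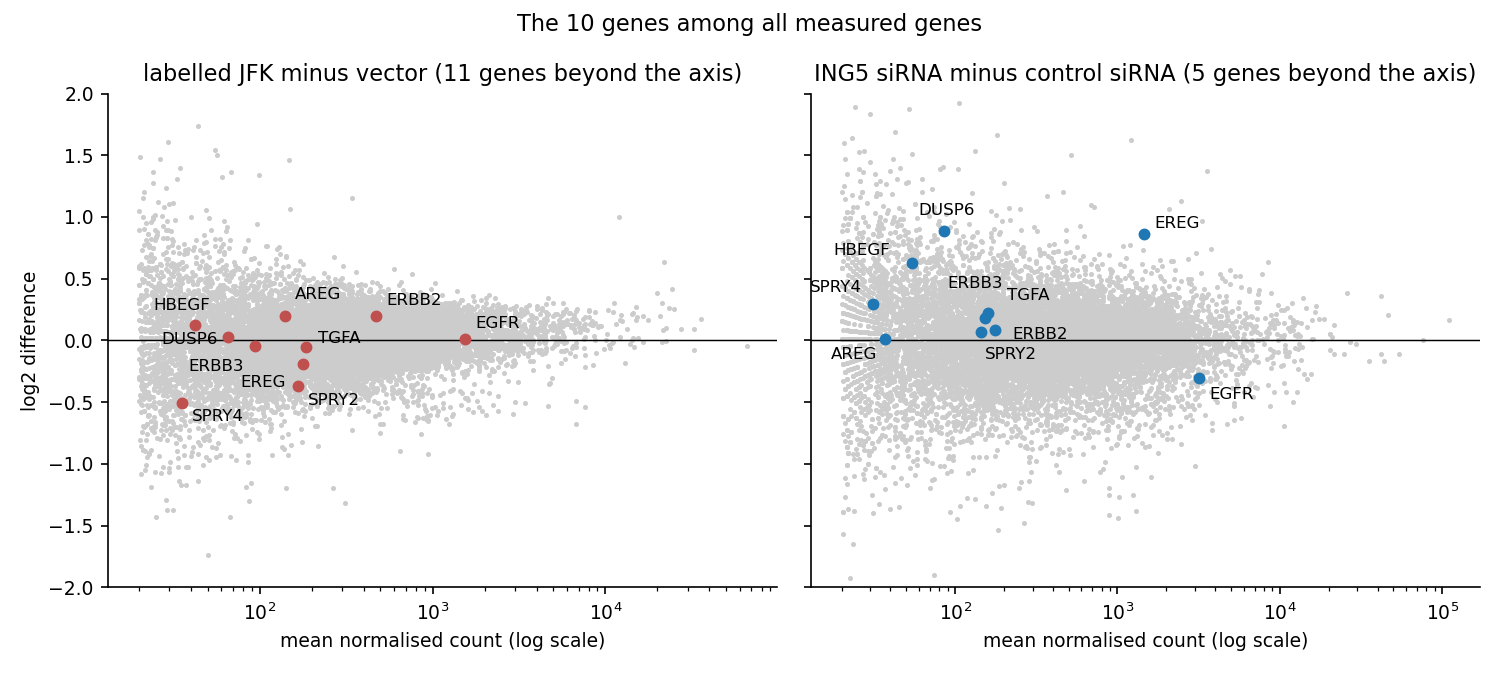
Log2 difference against mean normalised count (log scale) for all measured genes (grey) and the 10 genes (coloured), in the JFK-labelled library minus vector (left) and ING5 siRNA minus control siRNA (right); genes past 4-fold are beyond the axis. EREG (0.86) and DUSP6 (0.89) are the highest of the 10 on the right, and on the left all 10 lie between −0.50 and 0.20.

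Elsewhere in the pathway the JFK-labelled library gave 6 ERK target genes with an interval above 0 and 1 below among 15 measured, beside 14.3% and 11.2% of all measured genes, and the list median was 0.17. The 1 below was EPHA2, an ephrin receptor gene, with 863.21 expected counts in the JFK-labelled library and 1303.85 in vector (−0.57, interval −0.70 to −0.45). It also stood lower in ING5 siRNA, with 402 counts against 599 in control siRNA (−0.56, interval −0.75 to −0.38), a value looked up after the first was seen. IER2, an immediate early gene, lay at 0.30 (interval 0.16 to 0.44) and ETV5, an ETS factor gene, at 0.29 (interval 0.10 to 0.48). None of the list was 1.5-fold apart.

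In the list of other feedback and restraining genes, 2 of 9 measured had an interval above 0 and 1 below in the plasmid pair. The shares of all measured genes were 14.3% and 11.2%. DUSP4, a nuclear phosphatase, had 598 counts in the JFK-labelled library and 466.01 in vector (0.38, interval 0.21 to 0.56), and DUSP5 lay at 0.26 (interval 0.07 to 0.44). NF1 lay at −0.22 (interval −0.36 to −0.09). Of 17 adaptor and kinase genes, 5 had an interval above 0 and 2 below, beside the same 14.3% and 11.2%. MAP2K2, for MEK2, lay at 0.27 (interval 0.16 to 0.39). NRAS lay at −0.34 (interval −0.49 to −0.20) and the phosphatase gene PTPN11 at −0.24 (interval −0.38 to −0.11). ADAM10 lay at −0.20 (interval −0.35 to −0.05), and SOCS4, a suppressor of EGFR signalling, at −0.37 (interval −0.67 to −0.08). No further ligand had an interval off 0.

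**Figure D4:**
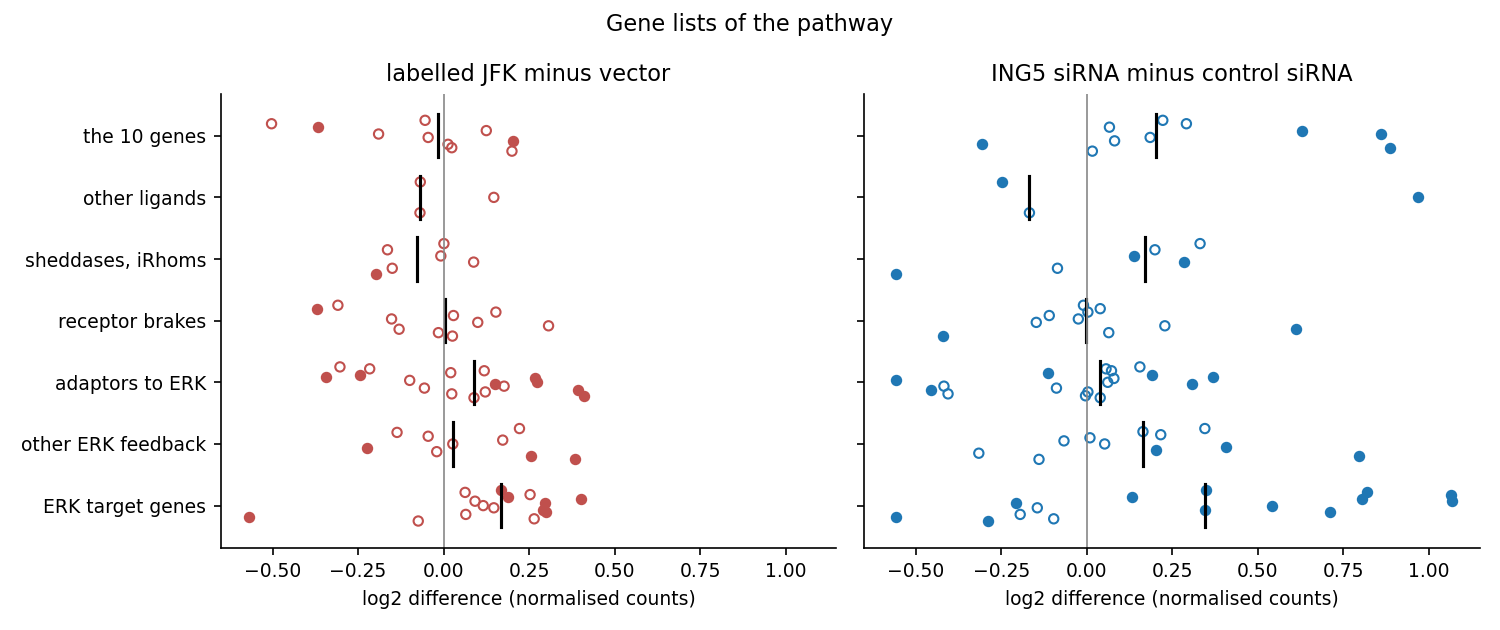
Log2 difference of each measured gene by list, in the JFK-labelled library minus vector (left) and ING5 siRNA minus control siRNA (right); filled points have a counting interval off 0, open points do not, and black bars are list medians. The median of the ERK target genes is 0.17 on the left and 0.35 on the right, and each list holds genes on both sides of 0.

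EREG, the gene of the 10 whose siRNA interval lay farthest from 0, was used to look for genes with a like pattern. Likeness was the distance between the pairs of log2 differences, over the 2 pairs of libraries and 8341 genes with a mean of at least 100 normalised counts in both. The closest genes were ST6GAL1 (distance 0.04), a sialyltransferase gene, ARMC9 (0.10), RPL22L1 (0.11), BIRC3 (0.12), an inhibitor of apoptosis induced by NF-kB, and ONECUT2 (0.12), a liver transcription factor gene. ST6GAL1 had 95 counts in the JFK-labelled library and 108 in vector, and 211 in ING5 siRNA and 119 in control siRNA. BIRC3 had 4394 counts in ING5 siRNA and 2272 in control siRNA (0.97). With 4 libraries such likeness rests on 2 differences.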

How the data were processed

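RNA was sequenced from 4 libraries of cells labelled HepG2, a label that markers of secreted hepatocyte products did not bear out, 1 per group, and the labels' transfection field gave the groups. The submitters' processing notes name DESeq2, STAR, fastp and FastQC beside GRCh37 and hg19; their versions and roles, and the read counter, are not stated there. The plasmid pair has deposited expected counts (69.0% whole in the JFK-labelled library and 68.6% in vector) and deposited FPKM, and the siRNA pair has deposited counts and deposited RPKM, per the file headers. Genes with a count of 0 are listed at an FPKM or RPKM of 0.01. Identifiers listed more than once in the siRNA tables (2), 1 blank count and rows without an Entrez number were left out. Symbols came from RefSeq (GRCh38.p14), matching 16900 and 16767 identifiers. Coordinates are given only for the promoter windows, on GRCh38.p14, which is not a build named in the submitters' notes.

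Counts were scaled with TMM factors (trims 0.3 and 0.05) with scipy 1.17.1, pandas 2.3.3 and numpy 2.4.6 under Python 3.11.15; matplotlib 3.10.9 drew the plots. Scaled counts were brought to the pair's mean depth, 0.5 was added, and log2 differences were taken; intervals use rounded counts. The labels name no molecular identifiers, so whether reads are independent molecules is not known, and intervals cover counting error only. The method was tested on simulated Poisson counts, which hold counting error only, so that test does not cover variation between libraries. The members and lists were chosen with earlier results of these data known. Genes named outside the 10 are, per list and comparison, up to 3 with the interval bound farthest from 0; 1 result that this rule covers is not reported here. Promoter windows matched 9 of 10 genes.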

Additional observations from a re-analysis of the deposited data

How the results depend on the processing

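With 1 library per group, no replicate could be left out. No paired analysis was possible because each group has 1 library. The 10 genes' differences stayed within their counting intervals in all 72 alternative values of the plasmid pair and all 76 of the siRNA pair. Of these, 68 and 75 kept their sign. EGFR and DUSP6 in the plasmid pair and AREG in the siRNA pair, all near 0, did not always keep theirs. These counts include values from settings that only choose which genes are kept. Those settings were other count filters, whole counts only, and leaving out genes whose count and FPKM or RPKM disagree. A kept gene keeps its difference under them, so these values could not have differed and were no check. Only other scalings, a larger amount added before the log, and the deposited FPKM or RPKM could move a difference. EREG ran from 0.84 to 0.87, DUSP6 from 0.84 to 0.90, HBEGF from 0.58 to 0.64 and EGFR from −0.32 to −0.30 in the siRNA pair; SPRY2 ran from −0.41 to −0.36 in the plasmid pair.

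Genes with an interval off 0 numbered 1 rather than 2 with total-count scaling in the plasmid pair, and in the siRNA pair 2 rather than 4 at a mean of at least 100, where HBEGF and DUSP6 fall under the filter. All genes 2-fold apart in the plasmid pair, 69, became 44 with 5 added before the log, 2216 with no filter, 8 at a mean of at least 100 and 20 with whole counts only. In the siRNA pair 170 became 2606 with no filter and 56 at a mean of at least 100. By FPKM 29 genes were higher and 48 lower, against 33 and 36 by counts. Count and FPKM differed by more than 1% beyond rounding for AREG and ERBB3 in the plasmid pair. At a mean under 100 counts (HBEGF, SPRY4, DUSP6 and AREG in the siRNA pair), depth limits what can be detected.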

Other observations

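SPRY1 and SPRY3, the other Sprouty genes, had 61 and 24 counts in ING5 siRNA and 55 and 19 in control siRNA, with intervals that spanned 0. In the plasmid pair they were below the filter, with 14 and 8 counts in the JFK-labelled library and 15 and 12 in vector. HRAS, chosen after its values were seen, lay at 0.39 (interval 0.08 to 0.71) in the JFK-labelled library against vector and at −0.46 (interval −0.81 to −0.10) in ING5 siRNA against control siRNA, and NRAS had the opposite sign in each pair. These directions were not tested against each other, and each pair has its own control.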
